A study of Homo sapiens with 8 samples.

Results

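The D-type cyclins, their catalytic partners CDK4 and CDK6, and some of the CDK inhibitors that act on the same complexes were followed in human neuroblastoma (NB) cells. The 10 genes, of 60676 genes in the count table, were picked by symbol and by no cut on a measured value, though earlier results of these data were known. They were the cyclins CCND1, CCND2 and CCND3 and the kinases CDK4 and CDK6. With them were the inhibitors CDKN2C and CDKN2D of the INK4 family, and CDKN1A, CDKN1B and CDKN1C of the CIP/KIP family. All 10 were found in the table by their Ensembl identifier. Of them 8 were among the 16680 genes with enough reads to be tested, while CCND2 and CDKN1C fell under the filter on low counts.

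Bulk RNA-seq was performed on aggregates of IGR-N91, an NB cell line, that were formed in hanging drops and harvested 20 h after the media were added, according to the sample labels (the series text gives a longer time). Each of 4 groups had 2 libraries: control medium, and media conditioned by sympathetic ganglia of E8 chick embryos (E8-cSGcm), dorsal root ganglia of E8 chick embryos (E8-cDRGcm) or sympathetic ganglia of E15.5 mouse embryos (E15.5-mSGcm). The labels name no genetic change and no agent beyond the medium, and all libraries came from a single cell line. The study also used a GFP-expressing form of the line, and the labels do not say which form was sequenced. The labels do not say whether both libraries of a group came from separate cultures, so that the p-values measure only the spread between these libraries, which may be technical.

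In the textbook view, D-type cyclins are made in response to signals from outside the cell, bind CDK4 or CDK6, and start the phosphorylation of the retinoblastoma protein RB, which releases E2F transcription factors and lets cells leave the G1 phase. INK4 proteins bind CDK4 and CDK6 and keep the cyclin away, whereas CIP/KIP proteins bind whole cyclin-CDK complexes, block CDK2 complexes and also help cyclin D and CDK4 to assemble. In the sympathoadrenal lineage and in NB this axis is well known because high CCND1 and gains of CDK4 occur in tumors. Transcript levels are not protein levels or kinase activity, which were not measured here.

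Total counts per library ranged from 7930765 to 15060744, and both libraries of E15.5-mSGcm, with 7930765 and 8937397 counts, were the shallowest. A floor of 3 counts corresponded to 0.199 to 0.378 CPM (counts scaled to the library total), for counting error only, since the reads carry no molecular identifiers. Levels are given as CPM scaled by edgeR's TMM factors, or, where genes are compared with each other, as RPKM (the same CPM per kilobase of exon). Of the NB markers examined, 9 of 10 had reads in these libraries, among them HAND2 (516 to 748 CPM), and the defining marker CHGA had no read in any library. Their summed level was 3231 to 3380 CPM in control medium, 2876 to 3059 in E8-cSGcm, 2331 to 2412 in E8-cDRGcm and 2374 to 2416 in E15.5-mSGcm. The 7 fibroblast markers, all of them read in every library, summed to 417 to 428 CPM in control medium, 435 to 448 in E8-cSGcm, 448 to 464 in E8-cDRGcm and 477 to 487 in E15.5-mSGcm. In that last medium 4 of the 7 were called higher and 1 lower, against 6.65% and 7.27% of all tested genes. The Schwann and satellite glia markers SOX10 and FABP7 and the endothelial marker CDH5 had no read. The sums of the glial (6), leukocyte (5) and endothelial (3) markers stayed between 0.0802 and 4.10 CPM. In control medium the glial sum was 1.12 to 1.45 CPM, against 2.24 to 4.10 in the conditioned media. The part of these markers in the results was not tested, and in bulk RNA fewer cells of a type and less RNA per cell cannot be told apart.

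The promoter windows of 3 of the genes are printed. CDKN1A and CDKN2D are the inhibitors whose transcripts rose. CDK4 is shown beside them as a kinase gene that was not called against control in any medium, which also holds for CDK6. The sequences are the 250 bases just before the annotated start, from RefSeq on GRCh38.p14, written 5′ to 3′ along the strand of the gene. They lie at chr6:36678464-36678713 (plus strand) for CDKN1A, chr19:10568980-10569229 (minus strand) for CDKN2D and chr12:57752311-57752560 (minus strand) for CDK4. Capitals mark matches on either strand to the motifs searched, with overlapping matches counted separately: the E-box CACGTG, the GC box GGGCGG, the CCAAT box CCAAT, and the E2F forms TTTCCCGC, TTTGGCGC, TTTGCCGC and TTTCGCGC.
CDKN1A: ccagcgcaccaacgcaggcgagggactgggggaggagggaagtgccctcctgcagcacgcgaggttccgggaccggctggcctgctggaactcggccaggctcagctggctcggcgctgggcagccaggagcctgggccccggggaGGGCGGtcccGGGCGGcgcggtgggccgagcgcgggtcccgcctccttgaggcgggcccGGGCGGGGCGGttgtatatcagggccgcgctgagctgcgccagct
CDKN2D: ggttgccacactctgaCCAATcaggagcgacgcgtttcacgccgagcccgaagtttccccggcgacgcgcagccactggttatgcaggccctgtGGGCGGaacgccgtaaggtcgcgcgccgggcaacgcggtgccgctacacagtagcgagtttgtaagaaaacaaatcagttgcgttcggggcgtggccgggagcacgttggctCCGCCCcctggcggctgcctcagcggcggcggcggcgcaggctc
CDK4: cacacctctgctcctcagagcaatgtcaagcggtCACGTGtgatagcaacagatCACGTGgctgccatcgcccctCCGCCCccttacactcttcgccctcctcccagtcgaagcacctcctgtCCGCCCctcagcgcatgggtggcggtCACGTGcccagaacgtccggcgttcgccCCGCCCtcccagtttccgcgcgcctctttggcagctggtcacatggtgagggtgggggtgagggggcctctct
The CDKN1A window held 4 GC boxes, the last pair of them overlapping, and no other motif. The CDKN2D window held 2 GC boxes and 1 CCAAT box. The CDK4 window held 3 E-boxes and 3 GC boxes. Of all 35116 promoter windows of the table, 42.6% held a GC box, 32.0% a CCAAT box, 6.34% an E-box and 2.79% an E2F form. Entries were matched for 7 of the 10 genes (12 windows in all), of which 9 held a GC box, 5 a CCAAT box, 3 an E-box and 0 an E2F form. CCND1, CCND2 and CDKN1C had no entry. Among the matched genes not called against control, CDK4 and CDKN2C had windows with an E-box, and CDK6, CDKN1B and CCND3 had none. Whether any motif bears on the transcript levels was not tested.

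Against control medium, CCND1 transcripts were lower in all 3 conditioned media, and of the 4 tested inhibitors CDKN2D was called higher in the chick media and CDKN1A in E8-cDRGcm and E15.5-mSGcm. CDKN1B and CDKN2C were not called in any medium. CCND1 fell 2.49-fold in E8-cSGcm and 4.05-fold in E8-cDRGcm, and was 1.49-fold lower in E15.5-mSGcm. CDKN2D rose 2.06-fold and 2.88-fold in the chick media and lay at its control level in the mouse medium. CDKN1A rose 2.42-fold in E8-cDRGcm and 3.32-fold in E15.5-mSGcm. A transcript was called at an adjusted p under 0.05 (edgeR quasi-likelihood test, adjusted over all 16680 genes) and a fold change of at least 1.5. By this rule 2 of the 8 tested genes were called in E8-cSGcm, where 8.59% of all tested genes were called. In E8-cDRGcm 3 were called, against 20.7% of all tested genes, and in E15.5-mSGcm 1 was called, against 13.9%. With so few genes these shares are a description only. By direction, 4.73% of all tested genes were called higher and 3.86% lower in E8-cSGcm, 9.81% and 10.9% in E8-cDRGcm, and 6.65% and 7.27% in E15.5-mSGcm. By the adjusted p alone 5, 5 and 6 of the 8 genes passed in the 3 media, against 31.3%, 49.5% and 37.8% of all tested genes. The libraries of 6, 7 and 6 of the 8 genes did not overlap with control, against 63.6%, 73.5% and 68.3% of all tested genes, so that a lack of overlap alone says little with 2 libraries a group.

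**Figure D1:**
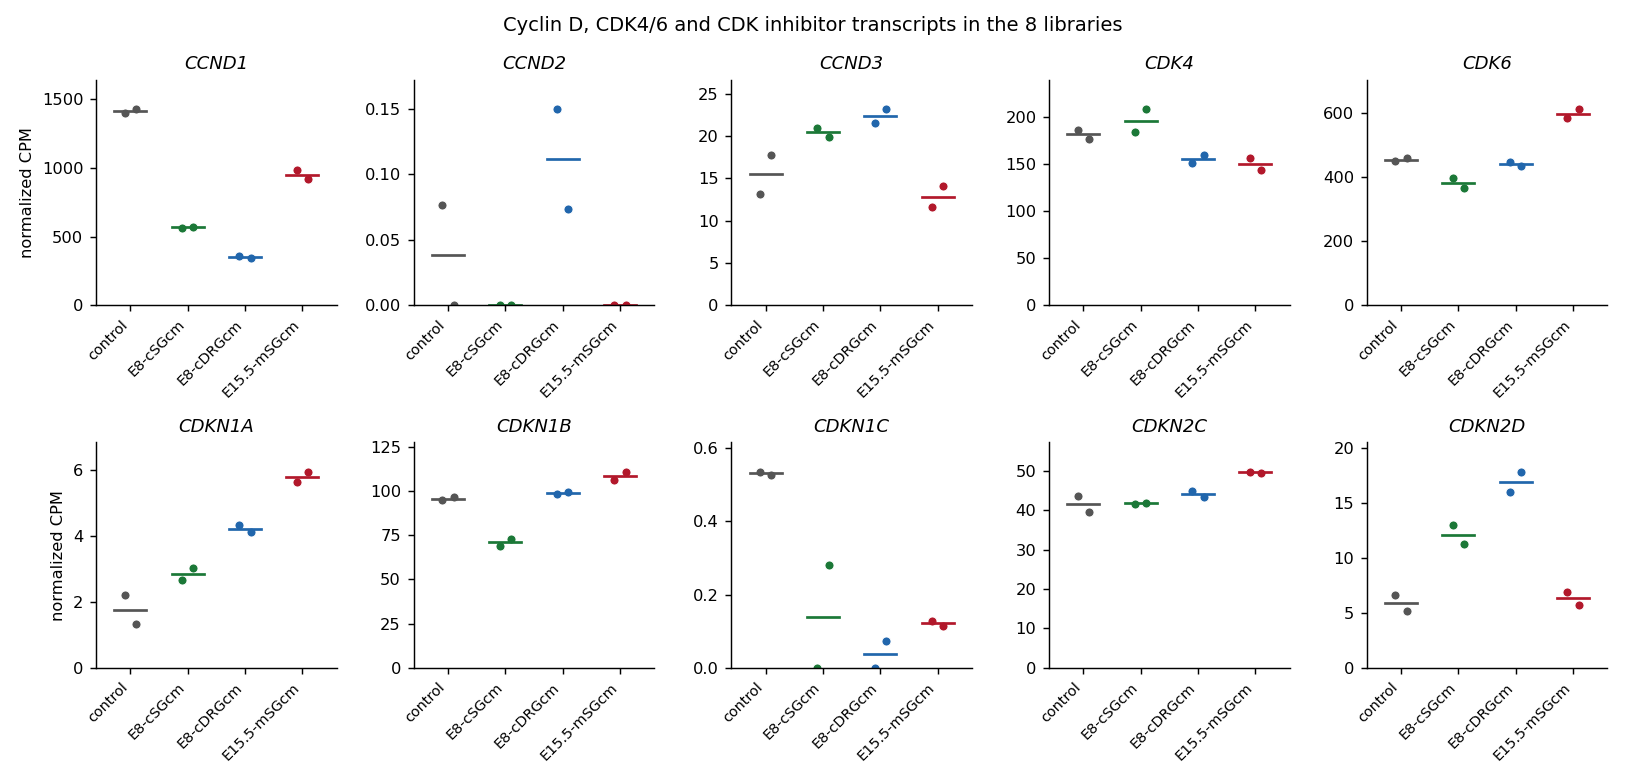
Each panel plots 1 gene, with its TMM-normalized CPM on the vertical axis and the 4 media on the horizontal axis. Points are the 2 libraries of a group and lines are their means. CCND1 stood at 1404 and 1430 CPM in control medium and at 343 to 982 CPM in the conditioned media, CDKN2D stood above control in both chick media, and CCND2 and CDKN1C had at most 8 reads in any library.

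CCND1, which encodes cyclin D1 (ENSG00000110092, chromosome 11, 69641156 to 69654474 on GRCh38.p14, plus strand), was the main D-type cyclin transcript of these cells. Its level was 1404 and 1430 CPM in the control libraries, 564 and 573 in E8-cSGcm, 357 and 343 in E8-cDRGcm, and 982 and 919 in E15.5-mSGcm. No library of one medium overlapped with a library of another, and both control libraries were the highest. The mean was 1417 ± 18.3 CPM in control medium (SD, n = 2) and 568 ± 6.37 in E8-cSGcm, a log2 fold change of -1.32 (SE 0.0482, adjusted p = 2.26e-22, edgeR). In E8-cDRGcm it was 350 ± 10.1 CPM, a log2 fold change of -2.02 (SE 0.0495, adjusted p = 2.73e-28, edgeR). In E15.5-mSGcm it was 951 ± 44.7 CPM, a log2 fold change of -0.58 (SE 0.0476, adjusted p = 1.96e-12, edgeR), which passed the adjusted p and missed the criterion of 1.5-fold. That call turned on the setting, since the gene passed without control replicate 1 (log2 fold change -0.60), without E15.5-mSGcm replicate 1 (-0.63), without E8-cSGcm replicate 1 (-0.59) and with every gene of at least 1 count in the fit (-0.63). Among the tested genes ordered by CPM, CCND1 was at rank 32 in both control libraries, at ranks 162 and 161 in E8-cSGcm, 400 and 421 in E8-cDRGcm, and 60 and 65 in E15.5-mSGcm.

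CCND3 (cyclin D3, ENSG00000112576, chromosome 6, 41934933 to 42050035, minus strand) was read at a much lower level. It had 13.2 and 17.8 CPM in the control libraries, 21.0 and 20.0 in E8-cSGcm, 21.5 and 23.2 in E8-cDRGcm, and 11.7 and 14.1 in E15.5-mSGcm. Libraries of both chick media lay above both control libraries, and those of the mouse medium overlapped with control. The log2 fold change was 0.39 in E8-cSGcm (SE 0.119, adjusted p = 0.0105, edgeR), 0.52 in E8-cDRGcm (SE 0.117, adjusted p = 3.13e-04) and -0.27 in E15.5-mSGcm (SE 0.143, adjusted p = 0.133). None reached 1.5-fold. The chick values depended on the control pair. Without control replicate 1 they were 0.20 (adjusted p = 0.297, edgeR) and 0.33 (adjusted p = 0.0396). Without control replicate 2 they were 0.64 (adjusted p = 0.00107, edgeR) and 0.77 (adjusted p = 2.98e-05), and both were then called. With DESeq2 the value in E8-cSGcm did not pass (adjusted p = 0.112).

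CCND2 (cyclin D2, ENSG00000118971, chromosome 12, 4273762 to 4305353, plus strand) was close to absent at this depth. The control libraries held 1 and 0 reads, those of E8-cDRGcm 2 and 1 reads, and the 4 libraries of E8-cSGcm and E15.5-mSGcm none. All these counts were at or under the floor of 3, so no fold is given. Of the exons of CCND2, 999 bp are shared with ENSG00000285901, a protein-coding gene on the same strand. How reads there were assigned is not given in the sources used here. On the RPKM scale the D-type cyclins summed to 297 and 303 in control medium, 122 and 124 in E8-cSGcm, 78.8 and 76.1 in E8-cDRGcm, and 208 and 196 in E15.5-mSGcm. CCND1 supplied 99.2% and 99.0% of that sum in the control libraries and 97.0% and 97.2% in E8-cSGcm. It supplied 95.2% and 94.7% in E8-cDRGcm and 99.0% and 98.8% in E15.5-mSGcm. The share of CCND3 was 0.768% and 1.02% in control medium and 4.74% and 5.30% in E8-cDRGcm. The sum of the 3 cyclins therefore followed CCND1, and CCND3 stayed a small fraction of it in every library.

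CDK4 (ENSG00000135446, chromosome 12, 57747727 to 57752310, minus strand), whose promoter window is printed above, was at 187 and 177 CPM in control medium. It was at 184 and 208 CPM in E8-cSGcm, 151 and 159 in E8-cDRGcm, and 156 and 143 in E15.5-mSGcm. The E8-cSGcm libraries overlapped with control, and the other 4 lay below it. The log2 fold change was 0.11 in E8-cSGcm (SE 0.0572, adjusted p = 0.132, edgeR), -0.23 in E8-cDRGcm (SE 0.058, adjusted p = 0.00138) and -0.28 in E15.5-mSGcm (SE 0.0606, adjusted p = 3.48e-04). The last pair passed the adjusted p and stayed under 1.5-fold. Exons of CDK4 overlap with exons of TSPAN31 on the opposite strand, and those of CCND1 with LTO1. Those of CCND2, CCND3, CDKN2C, CDK6 and CDKN1A overlap with antisense lncRNA genes, and CCND2 also has the same-strand overlap given above. The strand setting of the counting is not given in the sources used here, and without it reads of partners on opposite strands cannot be told apart.

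CDK6 (ENSG00000105810, chromosome 7, 92604921 to 92836573, minus strand) was below control in the chick sympathetic medium and above it in the mouse one, by less than 1.5-fold each. Its level was 450 and 459 CPM in control medium, 396 and 364 in E8-cSGcm, 448 and 433 in E8-cDRGcm, and 583 and 612 in E15.5-mSGcm. The mouse medium libraries were the highest and the E8-cSGcm libraries the lowest of the 8. The log2 fold change was -0.26 in E8-cSGcm (SE 0.0495, adjusted p = 9.27e-05, edgeR), -0.04 in E8-cDRGcm (SE 0.0492, adjusted p = 0.487) and 0.39 in E15.5-mSGcm (SE 0.0495, adjusted p = 3.98e-08). Per length, CDK4 made up 62.1% and 60.4% of the CDK4 and CDK6 level in control medium, 64.8% and 69.4% in E8-cSGcm, 57.1% and 59.3% in E8-cDRGcm, and 51.5% and 48.1% in E15.5-mSGcm.

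Of the INK4 inhibitors, CDKN2C (p18, ENSG00000123080, chromosome 1, 50960745 to 50974634, plus strand) stayed within a log2 fold change of 0.26 of control. It was read at 43.7 and 39.4 CPM in control medium, 41.5 and 41.9 in E8-cSGcm, 44.9 and 43.4 in E8-cDRGcm, and 49.7 and 49.5 in E15.5-mSGcm. The libraries of both chick media overlapped with control and those of the mouse medium lay above it. Its log2 fold change was 0.01 in E8-cSGcm (SE 0.077, adjusted p = 0.946, edgeR), 0.09 in E8-cDRGcm (SE 0.0763, adjusted p = 0.335) and 0.26 in E15.5-mSGcm (SE 0.0808, adjusted p = 0.0104). None reached 1.5-fold.

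CDKN2D (p19, ENSG00000129355, chromosome 19, 10566460 to 10568979, minus strand), the other INK4 gene among the 10 and the source of the promoter window with 1 CCAAT box, rose in both chick media. The control libraries had 6.65 and 5.13 CPM, those of E8-cSGcm 13.0 and 11.2, those of E8-cDRGcm 15.9 and 17.8, and those of E15.5-mSGcm 6.92 and 5.71. All 4 chick libraries lay above both control libraries, and the mouse pair overlapped with them. The mean was 5.89 ± 1.08 CPM in control medium (SD, n = 2) and 12.1 ± 1.26 in E8-cSGcm, a log2 fold change of 1.04 (SE 0.157, adjusted p = 1.99e-06, edgeR). In E8-cDRGcm it was 16.9 ± 1.32 CPM, a log2 fold change of 1.53 (SE 0.148, adjusted p = 5.35e-11, edgeR). In E15.5-mSGcm it was 6.31 ± 0.853 CPM, with a log2 fold change of 0.10 (95% interval -0.30 to 0.51, adjusted p = 0.723, edgeR). These levels rest on 50 to 243 reads a library.

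Of the CIP/KIP inhibitors, CDKN1A (p21, ENSG00000124762, chromosome 6, 36676463 to 36687332, plus strand), a direct target of p53, was scarce and rose in 2 of the 3 media. It had 2.22 and 1.32 CPM in the control libraries, 2.65 and 3.01 in E8-cSGcm, 4.34 and 4.10 in E8-cDRGcm, and 5.64 and 5.94 in E15.5-mSGcm. No library of one medium overlapped with another medium, from control at the bottom to E15.5-mSGcm at the top. The mean was 1.77 ± 0.638 CPM in control medium (SD, n = 2) and 4.22 ± 0.167 in E8-cDRGcm, a log2 fold change of 1.28 (SE 0.263, adjusted p = 1.03e-04, edgeR). In E15.5-mSGcm it was 5.79 ± 0.215 CPM, a log2 fold change of 1.73 (SE 0.269, adjusted p = 2.46e-06, edgeR). In E8-cSGcm it was 2.83 ± 0.258 CPM, a log2 fold change of 0.71 that did not pass (SE 0.284, adjusted p = 0.0555, edgeR). The libraries held 20 to 58 reads of the gene, and the control pair differed most, so the value in E8-cSGcm was 1.11 without control replicate 1 (adjusted p = 0.0215, edgeR, called) and 0.27 without control replicate 2. The window printed above, with its 4 GC boxes, lies inside the annotated span of the gene.

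CDKN1B (p27, ENSG00000111276, chromosome 12, 12717368 to 12722369, plus strand) was the most abundant CIP/KIP transcript. It was at 94.9 and 96.7 CPM in control medium, 68.9 and 73.0 in E8-cSGcm, 98.2 and 99.7 in E8-cDRGcm, and 106 and 111 in E15.5-mSGcm. E8-cSGcm was the medium below control, and the other media lay slightly above it. The log2 fold change was -0.43 in E8-cSGcm (SE 0.06, adjusted p = 4.70e-07, edgeR), 0.05 in E8-cDRGcm (SE 0.058, adjusted p = 0.531) and 0.18 in E15.5-mSGcm (SE 0.0605, adjusted p = 0.0165). The difference in E8-cSGcm passed the adjusted p but not the 1.5-fold criterion.

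CDKN1C (p57, ENSG00000129757, chromosome 11, 2883218 to 2885775, minus strand) had too few reads for the filter. The control libraries held 7 and 8 reads, those of E8-cSGcm 0 and 4, those of E8-cDRGcm 0 and 1, and those of E15.5-mSGcm 1 and 1. Every conditioned library held fewer reads than both control libraries. The ratio of its rate to control, over both libraries, was 0.284 in E8-cSGcm (4 against 15 reads, exact 95% interval 0.0686 to 0.892). It was 0.0679 in E8-cDRGcm (1 against 15 reads, 0.00161 to 0.441) and 0.221 in E15.5-mSGcm (2 against 15 reads, 0.0245 to 0.951). These intervals cover counting error only and not the spread between libraries. With every gene of at least 1 count kept in the fit, CDKN1C passed in E8-cDRGcm (log2 fold change -3.52, adjusted p = 0.0127, edgeR) and not in E8-cSGcm (adjusted p = 0.231) or E15.5-mSGcm (adjusted p = 0.203).

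**Figure D2:**
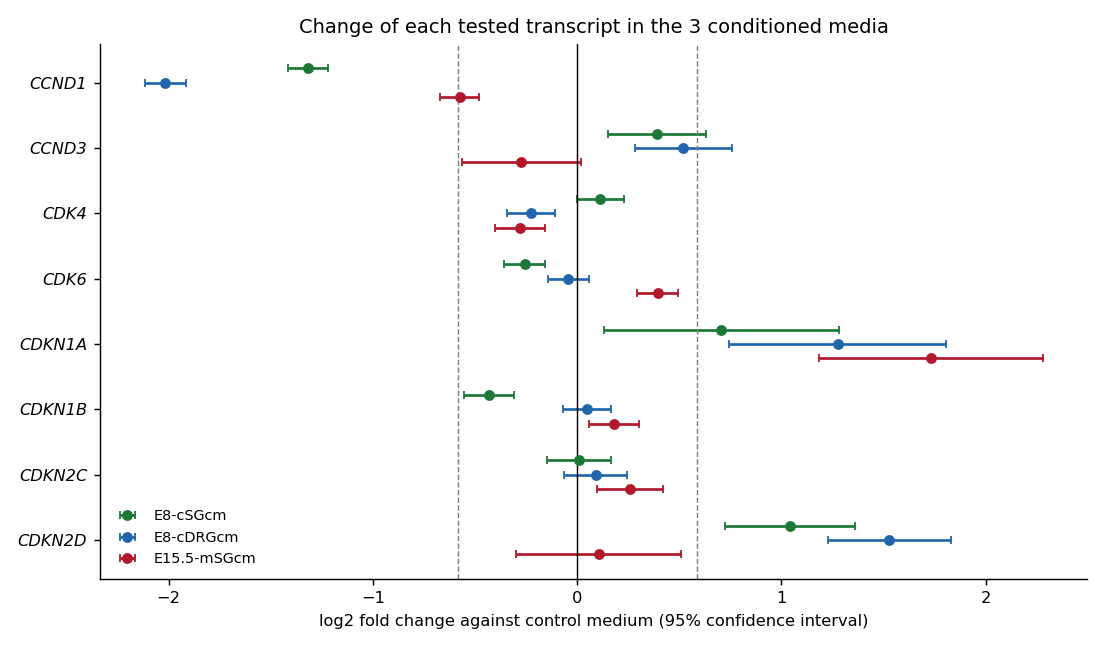
The horizontal axis gives the log2 fold change of each of the 8 tested genes against control medium, and bars are 95% confidence intervals of the edgeR fit of 2 libraries a group. Dashed lines mark 1.5-fold in either direction. CCND1 lies to the left in all 3 media (-1.32, -2.02 and -0.58), CDKN1A to the right (0.71, 1.28 and 1.73), and CDKN2D to the right in the chick media (1.04 and 1.53) and near 0 in the mouse medium (0.10).

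Per length, the order of the mean levels in control medium was CCND1 (298 RPKM), CDK4 (58.7), CDK6 (37.1), CDKN2C (13.8), CDKN1B (10.3), CDKN2D (3.91), CCND3 (2.69), CDKN1A (0.590), CDKN1C (0.214) and CCND2 (0.00479). No neighbours in this order overlapped in control medium. CCND1 stayed first in every medium. On this scale CDKN2D drew level with CDKN1B in E8-cSGcm and E8-cDRGcm (8.04 against 7.67 RPKM and 11.2 against 10.7 RPKM), with overlapping libraries. That position of CDKN1B, here and in control medium, rests on an exonic length of 9255 bp, longer than its RefSeq span given above. A shorter length would place it higher. In CPM, not divided by length, CDKN1B stayed above CDKN2D (71.0 against 12.1 in E8-cSGcm and 98.9 against 16.9 in E8-cDRGcm). CDKN1C and CCND2, with a few reads each, also overlapped in both chick media. In E15.5-mSGcm, CDK6 (48.8 RPKM) and CDK4 (48.4 RPKM) overlapped.

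The summed level of the 5 inhibitors among the 10 genes was 30.1 and 27.6 RPKM in control medium, 30.7 and 30.3 in E8-cSGcm, 37.5 and 38.4 in E8-cDRGcm, and 34.5 and 34.2 in E15.5-mSGcm. CDKN2C and CDKN1B were the larger parts of it in control medium (47.7% ± 0.498 and 36.0% ± 2.71, SD, n = 2), beside 13.5% ± 1.64 for CDKN2D and 2.03% ± 0.612 for CDKN1A. A shorter length for CDKN1B than the 9255 bp used would raise its share and the sum. It would lower the shares of the other inhibitors and the ratio of cyclins to inhibitors given below. Because CDKN1B was lower in E8-cSGcm (71.0 against 95.8 CPM), whether the sum of that medium lies above or below control also depends on this length. In CPM, CDKN1B lay above CDKN2C in control medium (95.8 against 41.5). The share of CDKN2D was 26.3% ± 2.51 in E8-cSGcm, 29.5% ± 1.86 in E8-cDRGcm and 12.2% ± 1.58 in E15.5-mSGcm. The share of CDKN1A reached 5.63% ± 0.241 in E15.5-mSGcm. The ratio of the summed D-type cyclins to the summed inhibitors was 10.4 ± 0.803 in control medium (SD, n = 2), 4.03 ± 0.0761 in E8-cSGcm, 2.04 ± 0.0823 in E8-cDRGcm and 5.88 ± 0.231 in E15.5-mSGcm, and no library of one medium overlapped with another. The ratio of the summed cyclins to CDK4 and CDK6 together was 3.06 and 3.21 in control medium and 0.923 and 0.875 in E8-cDRGcm. These ratios compare transcripts and were given no test.

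**Figure D3:**
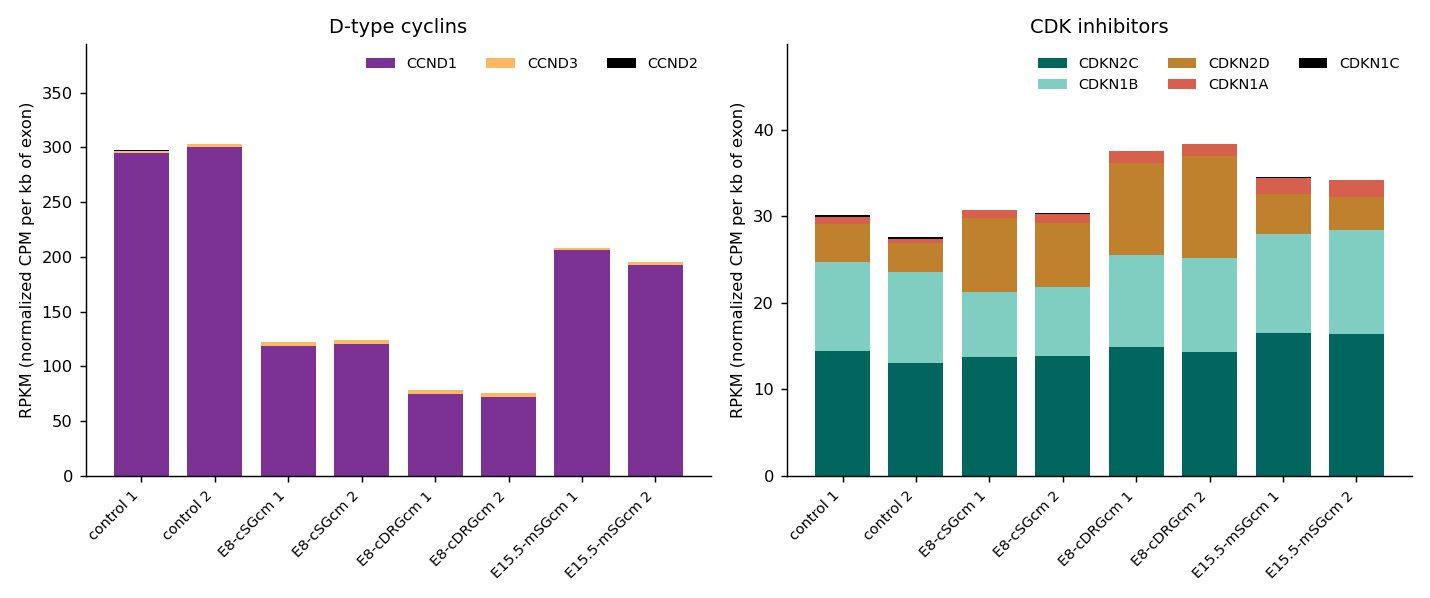
Stacked bars give the RPKM of the 3 D-type cyclins (left) and of the 5 CDK inhibitors (right) in each of the 8 libraries, and each color is 1 gene. The height of each band depends on the exonic length used, which was 9255 bp for CDKN1B. The left bars are almost wholly CCND1 and drop from 297 and 303 in control medium to 78.8 and 76.1 in E8-cDRGcm, whereas the right bars stay between 27.6 and 38.4, with a wider CDKN2D band in the chick media.

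The media were then compared with each other, since a change called in one medium and not in another is not by itself a difference. Between E8-cDRGcm and E8-cSGcm 1 of 8 genes was called, against 7.49% of all tested genes (2.62% higher and 4.87% lower): CCND1 was lower in E8-cDRGcm (log2 fold change -0.70, SE 0.0488, adjusted p = 9.65e-14, edgeR). CDKN2D was higher in E8-cDRGcm (0.48, SE 0.131, adjusted p = 0.00436), as was CDKN1B (0.48, SE 0.0601, adjusted p = 8.34e-08), both under 1.5-fold. CDKN1A differed by 0.57 (SE 0.241, adjusted p = 0.0698), and CDK4 was lower by a log2 fold change of -0.34 (SE 0.058, adjusted p = 1.91e-05). By the adjusted p alone 5 of 8 passed, against 30.2%, and the libraries of all 8 did not overlap, against 62.3%.

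Between the sympathetic media of mouse and chick, 6 of 8 genes were called, against 22.3% of all tested genes (10.2% higher and 12.1% lower). Relative to E8-cSGcm, E15.5-mSGcm had more CCND1 (log2 fold change 0.74, SE 0.0483, adjusted p = 1.37e-15, edgeR), CDKN1A (1.03, SE 0.248, adjusted p = 7.02e-04), CDK6 (0.65, SE 0.0499, adjusted p = 1.31e-13) and CDKN1B (0.61, SE 0.0626, adjusted p = 1.99e-10). It had less CDKN2D (-0.94, SE 0.176, adjusted p = 2.80e-05, edgeR) and CCND3 (-0.66, SE 0.138, adjusted p = 1.19e-04). CDK4 (-0.39, adjusted p = 1.27e-06, edgeR) and CDKN2C (0.25, adjusted p = 0.0101) also passed the adjusted p, under 1.5-fold, so that all 8 passed it, against 49.8% of all tested genes. The libraries of all 8 did not overlap, against 73.5%. The calls of CDK6, CDKN1B and CCND3 stood close to the criterion. They were lost when counts were corrected for the GC content and length of genes (0.49, 0.50 and -0.52), and each was lost on leaving out at least 1 library: E8-cSGcm replicate 2 for CDK6 (0.58), E8-cSGcm replicate 1 or E15.5-mSGcm replicate 2 for CDKN1B (0.56 and 0.57), and E15.5-mSGcm replicate 1 for CCND3 (-0.55). Species and embryonic stage of the ganglia cannot be told apart here. The mouse medium libraries were also the shallowest, and after thinning of all libraries to the smallest total 6 genes were called.

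Against E8-cDRGcm, 3 of 8 genes were called in E15.5-mSGcm, where 26.2% of all tested genes were (13.1% in each direction). CCND1 was higher (log2 fold change 1.44, SE 0.0493, adjusted p = 5.60e-24, edgeR), and CDKN2D (-1.42, SE 0.166, adjusted p = 3.15e-09) and CCND3 (-0.79, SE 0.136, adjusted p = 5.75e-06) were lower. CDK6 was higher by 0.44 (SE 0.0496, adjusted p = 1.49e-09, edgeR), under 1.5-fold. CDKN1A, called against control in both of these media, differed between them by 0.46 (95% interval -0.01 to 0.93, adjusted p = 0.0958, edgeR). By the adjusted p alone 4 of 8 passed, against 52.6% of all tested genes, and the libraries of 7 did not overlap, against 74.9%.

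The rest of the pathway was described with 4 lists of genes, by counts and medians, beside the median over all tested genes (0.01, 0.01 and -0.02 in E8-cSGcm, E8-cDRGcm and E15.5-mSGcm). Of 20 genes of the RB-E2F axis and later G1 cyclins 19 were tested, with medians of 0.05, -0.11 and -0.20 in the same order. None was called in E8-cSGcm, where by the adjusted p alone 3 were higher and 4 lower, against 2679 and 2534 of all 16680 tested genes. In E8-cDRGcm 1 rose, against 9.81% of all tested genes: E2F8, an E2F that represses transcription, from a mean of 8.34 to 12.9 CPM (log2 fold change 0.62, SE 0.154, adjusted p = 9.52e-04, edgeR). In E15.5-mSGcm 3 fell and none rose, against 7.27% of all tested genes called lower. They were E2F8 (-1.16, SE 0.222, adjusted p = 6.59e-05, edgeR) and the E-type cyclins CCNE1 (-0.79, SE 0.141, adjusted p = 2.38e-05) and CCNE2 (-0.81, SE 0.167, adjusted p = 1.79e-04), which pair with CDK2 after cyclin D. Of 15 genes for the assembly, activation and turnover of cyclin D-CDK complexes 13 were tested, and 0 were called in any of the 3 media, where 8.59%, 20.7% and 13.9% of all tested genes were. By the adjusted p alone 6, 8 and 7 of the 13 passed in the same order (edgeR), against 31.3%, 49.5% and 37.8% of all tested genes.

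Genes expressed in S phase and in G2 and M were read as an account of the cycle beyond G1. All 20 were tested, and their median log2 fold change was 0.11 in E8-cSGcm, 0.29 in E8-cDRGcm and -0.33 in E15.5-mSGcm. None was called in E8-cSGcm, and by the adjusted p alone 8 were higher and 0 lower, against 2679 and 2534 of all 16680 tested genes. In E8-cDRGcm 4 rose and 1 fell, against 9.81% and 10.9% of all tested genes, and by the adjusted p alone 11 were higher and 6 lower, against 4143 and 4118. The mitotic kinase genes CDK1 (log2 fold change 0.86, SE 0.0564, adjusted p = 1.83e-15, edgeR) and AURKA (0.64, SE 0.0648, adjusted p = 1.55e-10) and the cyclin gene CCNB2 (0.60, SE 0.0572, adjusted p = 3.35e-11) rose, and MCM3, a subunit of the replicative helicase, fell (-0.67, SE 0.0548, adjusted p = 7.16e-13). The fourth gene that rose was MKI67 (0.97, SE 0.212, adjusted p = 0.0203, edgeR), named after its value was seen. In E15.5-mSGcm none rose and 3 fell, against 7.27%: RRM2, a subunit of ribonucleotide reductase (-0.89, SE 0.0856, adjusted p = 9.58e-11, edgeR), CCNA2, cyclin A (-0.60, SE 0.0591, adjusted p = 1.77e-10), and the replication licensing factor CDT1 (-0.66, SE 0.138, adjusted p = 2.23e-04). By the adjusted p alone 16 of the 20 were lower and 1 higher there, against 3330 and 2975 of all 16680 tested genes. Compared directly, 12 of the 20 were called lower and 1 higher in E15.5-mSGcm than in E8-cDRGcm, against 13.1% of all tested genes in each direction. The lower CCND1 of E8-cDRGcm stood beside higher levels of CDK1, AURKA and CCNB2 and a lower level of MCM3. In E15.5-mSGcm the lower CCND1 (log2 fold change -0.58, under 1.5-fold) stood beside lower levels of 16 of the 20 genes. A relation between CCND1 and these genes was not tested.

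Targets of p53 other than CDKN1A were listed because CDKN1A is one of them. All 20 were tested, with medians of 0.00 in E8-cSGcm, -0.02 in E8-cDRGcm and 0.45 in E15.5-mSGcm. In E15.5-mSGcm 7 rose and 1 fell, against 6.65% and 7.27% of all tested genes. Those with the lowest adjusted p were TNFRSF10B, a death receptor (0.78, SE 0.0649, adjusted p = 2.06e-12, edgeR), ZMAT3, an RNA-binding protein (0.74, SE 0.066, adjusted p = 1.18e-11), the stress protein gene TP53INP1 (0.76, SE 0.0769, adjusted p = 2.86e-10) and PPM1D, a phosphatase that turns p53 signaling down (0.60, SE 0.0653, adjusted p = 1.74e-09). The gene that fell was SESN2, from a mean of 34.3 to 17.1 CPM (SE 0.111 on the log2 scale, adjusted p = 2.86e-09, edgeR), named after its value was seen. In E8-cSGcm 1 rose and 1 fell, against 4.73% and 3.86%: TNFRSF10B (0.70, SE 0.0621, adjusted p = 2.09e-11, edgeR) and TP53INP1 (-0.72, SE 0.0827, adjusted p = 9.07e-09). In E8-cDRGcm TNFRSF10B (1.51, SE 0.0598, adjusted p = 6.16e-22, edgeR) and the growth arrest gene GADD45A (1.01, SE 0.0632, adjusted p = 4.27e-16) rose and TP53INP1 fell (-1.19, SE 0.0869, adjusted p = 3.30e-14), against 9.81% and 10.9%. TNFRSF10B was therefore called higher in all 3 media, while TP53INP1 was called lower in both chick media and higher in the mouse medium. Counted by the adjusted p alone (edgeR), 1 of the 20 was higher and 6 lower in E8-cSGcm. These numbers were 6 and 5 in E8-cDRGcm, and 12 and 2 in E15.5-mSGcm. Of all 16680 tested genes, 2679 were higher and 2534 lower in E8-cSGcm, 4143 and 4118 in E8-cDRGcm, and 2975 and 3330 in E15.5-mSGcm.

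Transcripts whose pattern was most like that of a called gene were taken by Pearson's r of log2 CPM over the 8 libraries, among tested protein-coding genes, as a description of these libraries. CCND1 was closest to GATA2, a transcription factor of sympathetic development (r = 0.9996), whose means were 760 CPM in control medium, 294 in E8-cSGcm, 181 in E8-cDRGcm and 506 in E15.5-mSGcm, and next to CYGB, a globin gene (r = 0.997). CDKN2D was closest to RHBDD1 (r = 0.991) and to the laminin gene LAMC1 (r = 0.990), which had means of 2.69, 8.86, 12.2 and 2.84 CPM in the same order. CDKN1A was closest to CRADD (r = 0.977), with means of 7.19, 8.73, 10.5 and 11.2 CPM, and to CNOT8 (r = 0.976). The 8 points of each r are 4 pairs of libraries that share a medium.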

How the data were processed

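Total RNA of IGR-N91 aggregates (50 ng a library, stranded kit, single reads of 75 bp) was sequenced by the authors, who deposited raw counts of reads per Ensembl gene, without normalization. The submitters' processing notes name bcl2fastq 2.17.1.14, CutAdapt 1.9.1, TopHat2 2.1.0 and HTSeq 0.11.3 and the build GRCh38, whereas the methods text names hg19. The strand option and annotation release are not given in the sources used here. Each of the 8 columns was matched to its library by the name repeated in the labels, and 0 columns were left unused.

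Identifiers were matched to symbols (58611 of 60676) and exonic lengths with GENCODE release 44 mapped to GRCh37. Gene positions are those of RefSeq on GRCh38.p14. Counts were normalized by TMM (factors 0.977 to 1.02) and tested with edgeR 4.0.16 in R 4.3.3 (filterByExpr by group, robust quasi-likelihood fit of all 8 libraries by group, Benjamini-Hochberg adjustment over 16680 genes). The steps were tested on simulated data. The 10 genes, the gene and marker lists and the tests were chosen with earlier results of these data known. Named beside the 10 genes are, of each list and medium, at most the 4 called genes with the lowest adjusted p, and for each gene called against control the 2 protein-coding genes most like it (log2 CPM, prior count 2). Alternatives were DESeq2 1.42.0, RLE factors, filters at 1 count in total or 10 counts in every library, the libraries compared alone, the adjusted p without a fold criterion, a block for the replicate number, and each library left out in turn. A correction for GC content and length (splines with 5 degrees of freedom) and thinning to 7930765 counts were added after the data were seen. Figures were drawn with matplotlib 3.10.9.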

Additional observations from a re-analysis of the deposited data

Results flagged for a closer look

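Of the 8 tested genes, 6 differed between conditioned media by the edgeR test of the difference itself, at an adjusted p under 0.05 and 1.5-fold, which is why they are listed here. Log2 fold changes of CCND1 were -0.70 for E8-cDRGcm against E8-cSGcm, 0.74 for E15.5-mSGcm against E8-cSGcm and 1.44 for E15.5-mSGcm against E8-cDRGcm. For E15.5-mSGcm against E8-cSGcm they were also -0.94 for CDKN2D, 1.03 for CDKN1A, -0.66 for CCND3, 0.65 for CDK6 and 0.61 for CDKN1B. For E15.5-mSGcm against E8-cDRGcm they were -1.42 for CDKN2D and -0.79 for CCND3. The cause of these differences was not tested.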

How the results depend on the processing

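Of 768 values of single genes under the alternatives, 743 kept their direction and their side of the threshold, 11 newly passed it, 8 no longer did and 6 changed sign. None of the values that changed sign passed the adjusted p: CDKN2C in E8-cSGcm ranged from -0.066 to 0.085 with 1 library left out and was -0.045 with the GC and length correction, CDKN2D in E15.5-mSGcm ranged from -0.090 to 0.28 with 1 library left out and was -0.0077 after thinning, and CDK4 between E15.5-mSGcm and E8-cDRGcm ranged from -0.12 to 0.0015 with 1 library left out. DESeq2, RLE factors and the libraries compared alone left the number of genes called at 2, 3 and 1 against control in E8-cSGcm, E8-cDRGcm and E15.5-mSGcm. By adjusted p alone these were 5, 5 and 6, and 5 between the chick media. With a filter at 1 count in total, E15.5-mSGcm had 2 and E8-cDRGcm 4, with CCND1 and CDKN1C added. Requiring 10 counts in every library, E8-cSGcm had 3, with CDKN1A added (adjusted p = 0.0454, edgeR). The GC and length correction gave 2 between the chick media, where CDKN1A was then called (0.68), and 3 between E15.5-mSGcm and E8-cSGcm, and thinning gave 2 between the chick media, with CDKN1A called (0.93). Leaving out 1 library in turn gave 2 to 3 in E8-cSGcm, 3 to 4 in E8-cDRGcm, 1 to 2 in E15.5-mSGcm, 1 to 2 between the chick media, 5 to 6 between E15.5-mSGcm and E8-cSGcm, and 3 to 3 between E15.5-mSGcm and E8-cDRGcm. An arm left with 1 library was assumed to vary like the others. Without E8-cSGcm replicate 1, CDKN2D was called between the chick media (0.59). By DESeq2, CDKN1B (adjusted p = 0.0999) and CDKN2C (adjusted p = 0.0893) did not pass in E15.5-mSGcm. Same-numbered libraries did not vary together (correlations of deviations -0.0437 to 0.0420 across genes), and with the replicate block the numbers called were 2, 3 and 1 against control, and 1, 6 and 3 between media. Depth limits CDKN1A, at 20 to 58 reads a library, and leaves CCND2 and CDKN1C untested.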
